A study of Homo sapiens with 20 samples.

Results

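The 10 genes described here make, sense or inactivate prostaglandins: the cyclooxygenases PTGS1 and PTGS2, the prostaglandin E synthases PTGES, PTGES2 and PTGES3, the receptors PTGER2, PTGER3, PTGER4 and PTGFR, and the inactivating enzyme HPGD. They were chosen by symbol, all 10 were measured among 19775 genes, and the deposited probe annotation gives them 29 of the 54675 probe sets. PTGS1 and PTGS2 had been noted to be lower after depletion of APC or beta-catenin alone. Differences between those single depletions and the control are therefore given for the 10 genes as descriptions without a test. The other comparisons that use the single-depletion or control arrays share those arrays with that choice. Only the difference between the combined depletions does not, and even there the spread and the probe set per gene came from all 20 arrays.

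Prostaglandins are short-range lipid signals made from arachidonic acid. A cyclooxygenase (PTGS1, mostly constitutive, or PTGS2, mostly inducible) converts it to prostaglandin H2, and terminal synthases turn that into prostaglandin E2 and its relatives. Prostaglandin E2 acts on the receptors PTGER1 to PTGER4 and prostaglandin F2-alpha on PTGFR, while HPGD oxidises both to inactive forms. PTGS2 is best known in epithelia from intestinal tumours that have lost APC, where it is often raised.

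RNA was measured on 20 Affymetrix arrays of MII cells (MCF10-T1k), an established human mammary epithelial line transformed with RAS, 4 arrays for each of 5 siRNA treatments. Control cells received siRNA against GFP (siGFP). The other groups received siRNA against APC (siAPC), APC and TAZ (siAPC/siTAZ), beta-catenin (sibcat), or beta-catenin and TAZ (sibcat/siTAZ). APC holds together the machinery that targets beta-catenin for degradation. Beta-catenin is the product of CTNNB1, and TAZ, a coactivator of TEAD factors, is the product of WWTR1. All groups share the RAS-transformed background, lipofection, and a medium with serum, insulin, EGF, hydrocortisone and cholera toxin. By its title the series concerns the part TAZ plays in Wnt signalling. The comparisons ask how prostaglandin genes differ with APC or beta-catenin depletion and what added TAZ siRNA does to them. No group received TAZ siRNA alone. The labels do not say whether the 4 biological replicates were separate cultures. The p-values set each difference against the spread between samples within groups, and what that spread covers is therefore not known.

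Signals are log2 values, and a difference of 1 is a 2-fold difference. Array medians lay between 5.07 and 5.11. WWTR1 fell by 2.66 from siAPC to siAPC/siTAZ and fell by 2.21 from sibcat to sibcat/siTAZ (limma adjusted p = 2.8e-18 and 8.9e-17). APC fell by 0.88 in siAPC and CTNNB1 fell by 1.34 in sibcat cells against the control (adjusted p = 4.4e-11 and 3.6e-14), and WWTR1 also fell there (-0.41 and -0.43, adjusted p = 3.0e-06 and 2.0e-06). Beyond the first depletion, CTNNB1 fell by 1.41 from sibcat to sibcat/siTAZ, and APC fell by 0.46 from siAPC to siAPC/siTAZ. The part of these deeper depletions in the TAZ siRNA comparisons was not tested. Of 10 mammary epithelial markers 8 were measured, with mean signals of 8.90 to 12.51. Their summed linear signal was 24274 to 25122 in the control, 22851 to 23496 in siAPC and 17264 to 18482 in siAPC/siTAZ cells, and 19848 to 22061 in sibcat and 16428 to 16917 in sibcat/siTAZ cells. The sum hides opposite moves. From siAPC to siAPC/siTAZ, KRT18 went from 13.08 to 11.74 and KRT8 from 11.5 to 10.03, but KRT5 from 11.88 to 12.68. KRT14 went from 9.04 to 8.5, EPCAM from 11.3 to 10.68 and ITGB4 from 9.2 to 8.96. CDH1 went from 11.63 to 11.52 and LAMB3 from 10.11 to 10.19. From sibcat to sibcat/siTAZ, KRT18 went from 12.91 to 12.09 and KRT8 from 11.28 to 10.2, but KRT5 from 11.58 to 12.34. KRT14 went there from 8.68 to 8.65, EPCAM from 11.45 to 11.28 and ITGB4 from 9.21 to 8.41. CDH1 went from 11.11 to 10.75 and LAMB3 from 10.37 to 9.92. Of the 6 fibroblast markers, DCN was at 11.32 to 12.76 over the groups, PDGFRB at 5.62 to 6.05, COL1A2 at 4.34 to 4.81 and LUM at 2.75 to 2.88. COL3A1 was at 5.44 in the control, 5.08 in siAPC, 9.86 in siAPC/siTAZ, 4.55 in sibcat and 8.16 in sibcat/siTAZ cells. COL1A1 was at 9.56, 8.54, 11.22, 8.76 and 10.58 in the same order. The 6 summed to 5809 to 6304 in the control, to 2986 to 3126 in siAPC and 9066 to 9334 in siAPC/siTAZ cells, and to 4163 to 4414 in sibcat and 8545 to 9131 in sibcat/siTAZ cells. Of 7 leukocyte and mast cell markers 5 were measured, with PTPRC at 2.67 to 2.73 in every group and the sum at 113 to 126 in the control, at 178 to 206 in siAPC and 101 to 118 in siAPC/siTAZ cells, and at 154 to 166 in sibcat and 93 to 115 in sibcat/siTAZ cells. The higher sums go with CPA3, at 3.22 in the control, 6.57 in siAPC and 6.0 in sibcat cells. LYZ was at 4.54 in the control and 3.19 to 3.61 in the other groups, and CD3E and TPSAB1 lay between 5.07 and 5.51. The 4 endothelial markers summed to 146 to 176 in the control, to 76 to 97 in siAPC and 95 to 104 in siAPC/siTAZ cells, and to 143 to 155 in sibcat and 145 to 160 in sibcat/siTAZ cells. The 3' minus 5' signal of ACTB, a measure of RNA quality, was 1.57 in siAPC, 1.99 in siAPC/siTAZ, 1.81 in sibcat and 2.04 in sibcat/siTAZ cells against 1.83 in the control (two-sided exact permutation p = 0.0286, 0.0571, 0.714 and 0.0286, where 0.0286 is the smallest that 4 against 4 arrays can give, and 0.0458, 0.0761, 0.714 and 0.0458 after Benjamini-Hochberg adjustment over 8 tests). The same measure of GAPDH was 0.09 in the control, 0.12 in siAPC, 0.16 in siAPC/siTAZ, 0.12 in sibcat and 0.18 in sibcat/siTAZ cells (two-sided exact permutation p = 0.0286, 0.0286, 0.143 and 0.0286 against the control, and 0.0458, 0.0458, 0.163 and 0.0458 after that adjustment). The part of these differences in the results below was not tested.

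The promoters of 4 members are shown because the results turn on these genes: both cyclooxygenases, the inducible synthase, and the receptor that moved in opposite directions in the siAPC and sibcat backgrounds. They were chosen after the values were seen. Each is the 250 bases before the gene start, 5' to 3', from RefSeq on GRCh38.p14, with matches to 6 searched motifs in capitals.
PTGS1, chr9:122370283-122370532, plus strand: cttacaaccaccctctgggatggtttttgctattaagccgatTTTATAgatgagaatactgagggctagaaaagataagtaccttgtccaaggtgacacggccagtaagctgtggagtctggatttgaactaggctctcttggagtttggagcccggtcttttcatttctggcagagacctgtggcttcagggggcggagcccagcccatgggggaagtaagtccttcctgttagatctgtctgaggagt
PTGS2, chr1:186680424-186680673, minus strand: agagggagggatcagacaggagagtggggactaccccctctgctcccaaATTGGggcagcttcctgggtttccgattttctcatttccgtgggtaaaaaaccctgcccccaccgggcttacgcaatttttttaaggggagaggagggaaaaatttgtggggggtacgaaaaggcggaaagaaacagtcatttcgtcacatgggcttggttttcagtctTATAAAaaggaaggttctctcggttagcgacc
PTGES, chr9:129753043-129753292, minus strand: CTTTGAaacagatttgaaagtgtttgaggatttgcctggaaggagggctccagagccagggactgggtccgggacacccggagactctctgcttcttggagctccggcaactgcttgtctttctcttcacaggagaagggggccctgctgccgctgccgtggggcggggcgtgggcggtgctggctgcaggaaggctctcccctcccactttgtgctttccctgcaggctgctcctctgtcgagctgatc
PTGER4, chr5:40679665-40679914, plus strand: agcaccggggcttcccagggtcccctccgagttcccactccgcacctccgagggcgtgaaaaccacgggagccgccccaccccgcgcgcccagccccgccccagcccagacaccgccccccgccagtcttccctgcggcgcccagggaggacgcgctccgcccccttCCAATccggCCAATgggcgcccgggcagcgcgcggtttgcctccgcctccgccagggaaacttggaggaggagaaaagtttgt
Both strands were searched. The letters TATAAA stand for the box that places many transcription starts. The letters GGAATG are bound by TEAD factors, and CTTTGA is the core of sites for TCF and LEF factors, the partners of beta-catenin. AP-1 was searched as TGANTCA, the cyclic AMP response element as TGACGTCA, and the NF-Y box as CCAAT. No searched motif contains another. PTGS2 had TATAAA at position -32 counted from the gene start, where this box usually lies, and a CCAAT match on the opposite strand at -201. PTGS1 had these letters only on the opposite strand, at -208. PTGES began its window with CTTTGA at -250, and PTGER4 had CCAAT at -83 and -74. Of the 9 members with a promoter in the table (all but PTGER3), none had the TEAD letters, which 11.9% of 27305 promoter windows of this length hold, and PTGES and HPGD had the TCF/LEF letters, which 11.4% hold. The HPGD window lies inside the annotated span of that gene, so it does not end at the outermost annotated start as the other 8 do. TATAAA was found in 11.1% and CCAAT in 33.0% of all windows. None of the 9 matched the AP-1 letters (6.60% of all windows) or those of the cyclic AMP response element (1.77%). A match describes letters in this window only.

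The groups were ordered differently from gene to gene. In the plot of levels by group, PTGS1, PTGS2, PTGES and HPGD had their highest mean in the control (PTGES overlapping sibcat/siTAZ), PTGER4 and PTGER2 were highest with combined APC and TAZ depletion, and PTGFR was highest with combined beta-catenin and TAZ depletion. PTGER2 and PTGER3 had mean signals of 4.82 and 4.45, below the array medians, where background compresses differences. The other 8 members lay above the median gene mean of 6.16.

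**Figure D1:**
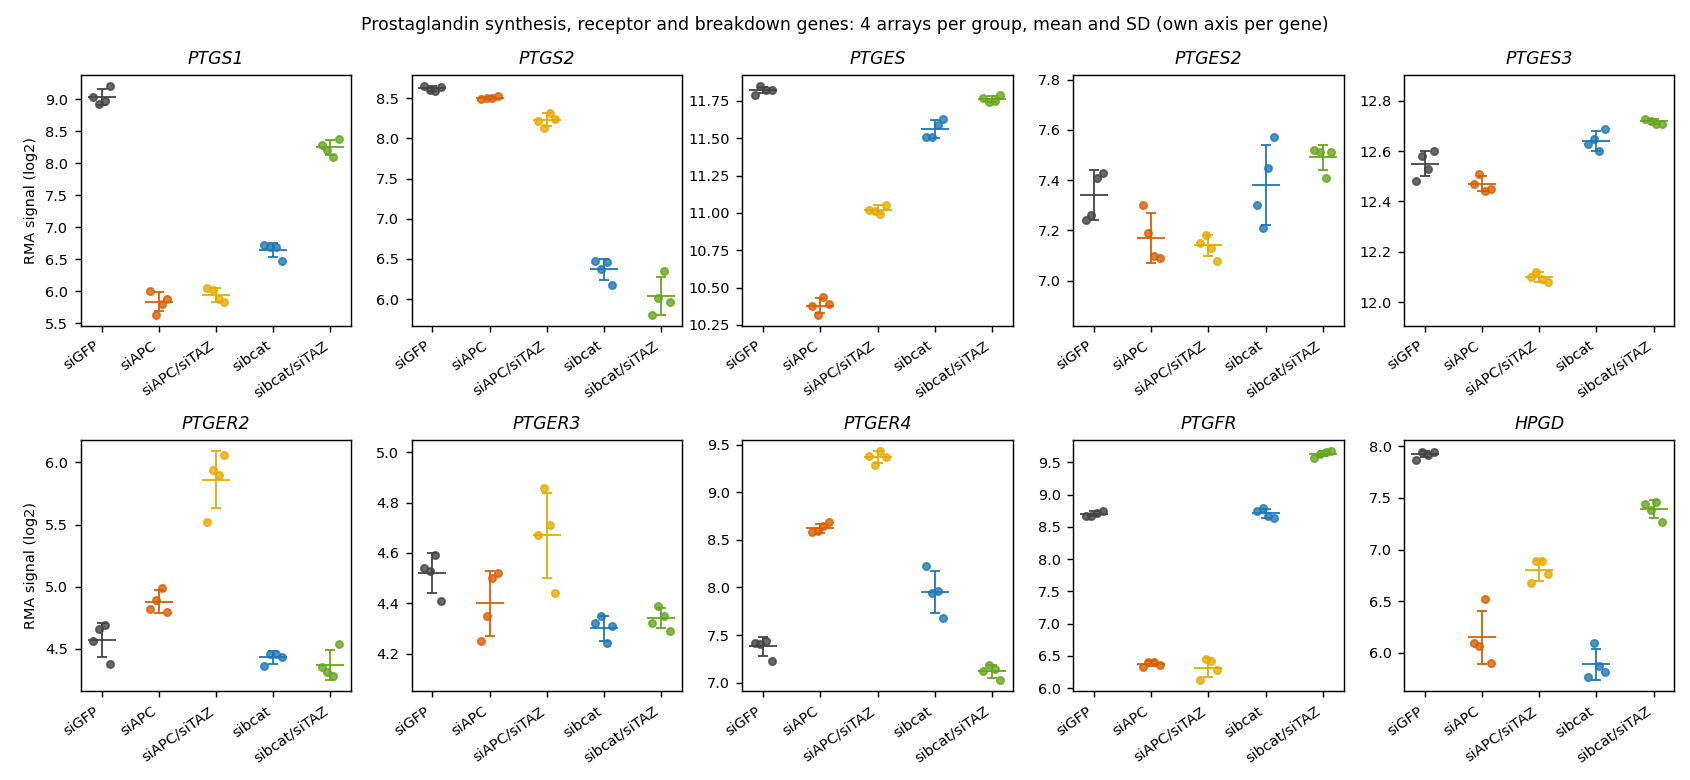
RMA signal (log2, vertical axis, own range for each gene) of the 10 genes in the 5 siRNA groups (horizontal axis). Points are the 4 arrays of a group, the horizontal mark is their mean and the whiskers are the SD. PTGS1 runs from 9.04 in siGFP to 5.84 in siAPC, and PTGFR from 9.63 in sibcat/siTAZ to 6.32 in siAPC/siTAZ.

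PTGS1 was lower in both single depletions, and TAZ siRNA was followed by a higher level in beta-catenin-depleted cells, without a called change in APC-depleted cells. The control arrays read 9.04, 8.93, 8.98 and 9.21. The siAPC arrays read 6.0, 5.64, 5.81 and 5.89, and the sibcat arrays 6.73, 6.69, 6.70 and 6.48. Both sets lay clear of the control, with differences of -3.20 (9.22-fold lower) and -2.39 (5.24-fold lower).
With TAZ siRNA added, the siAPC/siTAZ arrays read 6.06, 6.02, 5.88 and 5.84 and overlapped the siAPC arrays (0.12 ± 0.08, log2 difference and SE, limma adjusted p = 0.300, 95% interval -0.06 to 0.29). The sibcat/siTAZ arrays read 8.29, 8.21, 8.10 and 8.38, above all sibcat arrays. PTGS1 rose there by 1.60 ± 0.08 (3.02-fold, adjusted p = 7.9e-12) and remained 0.79 below the control mean (-0.79 ± 0.08, adjusted p = 1.2e-07). The TAZ siRNA effect differed between the backgrounds (-1.48 ± 0.12, siAPC minus sibcat background, adjusted p = 9.8e-09). These comparisons share single-depletion or control arrays with the choice of PTGS1, so their p-values are no independent support.

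The 4 PTGS1 probe sets did not give the same size. After single depletion all 4 were lower than in the control, by differences between -3.35 and -0.83 for siAPC and between -2.73 and -0.93 for sibcat. With TAZ siRNA added to sibcat, the changes were 1.60 for 205128_x_at (the one used for the gene, having the highest mean), 1.58 for 215813_s_at, 0.62 for 238669_at and 0.12 for 205127_at, the last of which was not called (limma over single probe sets, adjusted p = 0.310). With TAZ siRNA added to siAPC, 238669_at and 205127_at fell (-0.27 and -0.38, adjusted p = 0.0085 and 3.5e-04), and the other 2 were not called. The mean over the 4 probe sets changed by 0.98 in the sibcat background. The TAZ siRNA effect was lower in the siAPC than in the sibcat background for all 4, from -1.48 to -0.50.

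PTGS2 had another pattern: it was low wherever beta-catenin was depleted and closer to the control where APC was (mean differences of -0.12 and -0.39). The control arrays read 8.65, 8.60, 8.59 and 8.64 and the siAPC arrays 8.49, 8.50, 8.50 and 8.52. These do not overlap, but the difference of the means was -0.12 (1.08-fold lower), and the larger difference was in sibcat cells. In those the arrays read 6.47, 6.37, 6.46 and 6.18, a difference of -2.25 (4.76-fold lower).
By the probe set used for the gene, 204748_at, TAZ siRNA lowered PTGS2 slightly in each background. The siAPC/siTAZ arrays read 8.21, 8.13, 8.32 and 8.24, all below the siAPC arrays (-0.28 ± 0.08, adjusted p = 0.0102) and below the control (-0.39 ± 0.08, adjusted p = 5.1e-04). The sibcat/siTAZ arrays read 5.81, 6.01, 6.35 and 5.97 and overlapped the sibcat arrays (-0.33 ± 0.08, adjusted p = 0.00365). The difference between the backgrounds was 0.06 ± 0.12 (adjusted p = 0.793, 95% interval -0.19 to 0.31). The first call was lost with the mean over both probe sets (-0.24, adjusted p = 0.0820) and the second when only sibcat and sibcat/siTAZ arrays were fitted (-0.34, adjusted p = 0.0520). The second probe set, 1554997_a_at, was called in neither background (-0.20 and -0.31, limma over single probe sets, adjusted p = 0.367 and 0.187). It was also not called for siAPC/siTAZ against the control (-0.40, adjusted p = 0.0534). As for PTGS1, these comparisons share arrays with the choice of PTGS2, and their p-values are no independent support.

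The comparison of the combined depletions separated the cyclooxygenases in opposite directions. Its differences of means use none of the arrays on which these genes were noted. The spread behind its p-values and the probe set of each gene came from all 20 arrays. PTGS1 was 4.91-fold lower in siAPC/siTAZ than in sibcat/siTAZ cells (-2.30 ± 0.08, adjusted p = 1.0e-14), and PTGS2 was 4.56-fold higher (2.19 ± 0.08, adjusted p = 2.2e-14). All 4 probe sets of PTGS1 were called lower (-2.37 to -0.40) and both of PTGS2 higher (2.19 and 2.29). All 10 members were called in this comparison, 4 higher (20.8% of all genes) and 6 lower (24.2%) in siAPC/siTAZ, against 45.0% of all genes called, and the arrays did not overlap for all 10, against 42.9% of all genes. The median size of the members' differences was 1.11, against 0.16 over all genes.

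Among the terminal synthases, PTGES had the widest span of group means (1.44). PTGES, the inducible membrane enzyme that couples to PTGS2, read 11.79, 11.85, 11.82 and 11.82 in the control and 10.38, 10.32, 10.44 and 10.39 in siAPC cells, a difference of -1.44 (2.71-fold lower). In sibcat cells it read 11.51, 11.51, 11.59 and 11.63, a difference of -0.26. The siAPC arrays stood lowest of all groups.
TAZ siRNA raised PTGES in both backgrounds. The siAPC/siTAZ arrays, 11.02, 11.01, 10.99 and 11.05, all exceeded the siAPC arrays (0.64 ± 0.04, adjusted p = 1.6e-11). The sibcat/siTAZ arrays, 11.77, 11.74, 11.75 and 11.79, all exceeded the sibcat arrays (0.20 ± 0.04, adjusted p = 1.8e-04). The larger rise in the siAPC background was called (0.43 ± 0.05, adjusted p = 2.0e-06), although the second probe set, 207388_s_at, gave 0.21 (adjusted p = 0.0840 over single probe sets) and was not called for the sibcat background (0.13, adjusted p = 0.120). PTGES ended 0.80 below the control in siAPC/siTAZ cells (-0.80 ± 0.04, adjusted p = 3.5e-13), and in sibcat/siTAZ cells its difference from the control was -0.06 ± 0.04 (adjusted p = 0.224). With the mean over both probe sets that last difference was called (-0.14, adjusted p = 0.00752).

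PTGES3, a cytosolic synthase that is also the HSP90 co-chaperone p23, moved within a span of 0.62. Its siAPC/siTAZ arrays (12.10, 12.12, 12.09 and 12.08) lay below every other array, and it fell by 0.37 ± 0.03 on addition of TAZ siRNA to siAPC (adjusted p = 1.9e-08). In the sibcat background the arrays were at 12.60 to 12.69 without and 12.71 to 12.73 with TAZ siRNA, a difference of 0.08 ± 0.03 that did not pass the threshold (adjusted p = 0.109) but did with a trended prior (adjusted p = 0.0196) or with genes of mean signal at least 6 (adjusted p = 0.0417). The TAZ siRNA effects differed by -0.45 ± 0.05 (adjusted p = 5.9e-07). PTGES2, the constitutive membrane-associated synthase, spanned only 0.35 over the group means, and neighbouring groups overlapped throughout. It was not called on adding TAZ siRNA (-0.04 ± 0.07 and 0.10 ± 0.07, adjusted p = 0.732 and 0.292), and it was lower in siAPC/siTAZ than in sibcat/siTAZ cells (-0.35 ± 0.07, adjusted p = 2.2e-04).

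Of the prostaglandin E2 receptors, PTGER4 showed the widest range, and TAZ siRNA moved it in opposite directions. PTGER4, which raises cAMP through Gs, read 7.42, 7.41, 7.44 and 7.23 in the control. It read 8.58, 8.59, 8.64 and 8.69 in siAPC cells (difference 1.25, 2.38-fold higher) and 8.22, 7.94, 7.96 and 7.68 in sibcat cells (difference 0.57, 1.49-fold higher). Both single depletions stood above the control, and siAPC above sibcat.
Adding TAZ siRNA raised PTGER4 in APC-depleted cells to 9.38, 9.29, 9.43 and 9.37 (0.74 ± 0.08, adjusted p = 1.6e-07) and lowered it in beta-catenin-depleted cells to 7.12, 7.19, 7.14 and 7.03 (-0.83 ± 0.08, adjusted p = 6.5e-08). No group overlapped its neighbour in the order of levels, and the effects of TAZ siRNA in the 2 backgrounds differed by 1.57 ± 0.11 (adjusted p = 2.1e-09). In sibcat/siTAZ cells PTGER4 ended just below the control (-0.26 ± 0.08, adjusted p = 0.0123), and in siAPC/siTAZ cells 3.98-fold above it (1.99 ± 0.08, adjusted p = 4.6e-14). The second probe set, 204896_s_at, had means of 4.00 to 4.22 and was called in none of these comparisons (TAZ siRNA in siAPC 0.00 and in sibcat -0.11, adjusted p = 0.981 and 0.554), so the means over both probe sets were 0.37 and -0.47. With that mean, the effects of TAZ siRNA in the backgrounds differed by 0.85 and siAPC/siTAZ cells were 1.00 above the control.

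PTGER2, the other Gs-coupled receptor for prostaglandin E2, responded to TAZ siRNA in APC-depleted cells and was not called in beta-catenin-depleted cells. Its arrays read 4.56, 4.66, 4.69 and 4.38 in the control, 4.82, 4.89, 4.99 and 4.80 in siAPC (difference 0.30), and 4.36, 4.46, 4.46 and 4.43 in sibcat cells (difference -0.14). With TAZ siRNA it rose to 5.52, 5.94, 5.90 and 6.06 in the siAPC background, above all other arrays (0.98 ± 0.09, 1.97-fold, adjusted p = 2.9e-08). It read 4.35, 4.31, 4.28 and 4.54 in sibcat/siTAZ cells (-0.06 ± 0.09, adjusted p = 0.721). The difference between the effects was 1.04 ± 0.13 (adjusted p = 4.4e-06).

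PTGER3, which mainly lowers cAMP through Gi, has many splice forms and 10 probe sets, 9 of which spanned at most 0.42 over the group means. The exception was 213933_at, at 3.04 ± 0.09 (SD, n = 4) in the control, 3.14 ± 0.10 in siAPC, 2.96 ± 0.14 in sibcat and 2.94 ± 0.23 in sibcat/siTAZ cells. In siAPC/siTAZ cells it stood at 4.38 ± 0.15, a rise of 1.24 ± 0.10 over siAPC (limma over single probe sets, adjusted p = 2.2e-09), against -0.01 ± 0.10 in the sibcat background. The probe set used for the gene, 210374_x_at, changed by 0.27 ± 0.07 and 0.03 ± 0.07 (adjusted p = 0.00535 and 0.806). In the siAPC background its arrays with and without TAZ siRNA overlapped, and 7 of the 10 probe sets were not called there. The difference between its effects was not called (0.23 ± 0.10, adjusted p = 0.110), but it was without siAPC/siTAZ replicate D (0.31, adjusted p = 0.0131) and with the mean over all probe sets (0.20, adjusted p = 0.00296). For 213933_at that difference was 1.25 ± 0.14 (adjusted p = 1.0e-06). This probe set was singled out after its values were seen.

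PTGFR, the Gq-coupled receptor for prostaglandin F2-alpha, separated the APC from the beta-catenin groups. The control arrays read 8.67, 8.66, 8.71 and 8.74, the sibcat arrays 8.75, 8.79, 8.67 and 8.64 and the siAPC arrays 6.33, 6.40, 6.41 and 6.36. The sibcat difference from the control was 0.02 and the siAPC difference -2.32 (4.99-fold lower). Set against each other, siAPC was 5.05-fold below sibcat (-2.34 ± 0.06, adjusted p = 1.8e-16).
TAZ siRNA left no called change in the siAPC background, with arrays of 6.13, 6.46, 6.42 and 6.28 (-0.05 ± 0.06, adjusted p = 0.514, 95% interval -0.17 to 0.07). It raised PTGFR in the sibcat background to 9.57, 9.63, 9.66 and 9.67 (0.92 ± 0.06, adjusted p = 1.2e-10), above every control array (0.94 ± 0.06 against the control, adjusted p = 5.0e-11). The effects differed by -0.97 ± 0.08 (adjusted p = 1.9e-08). The combined depletions differed by -3.31 ± 0.06 (9.92-fold, adjusted p = 2.7e-19), the widest gap of any member in that comparison, and both probe sets were called there (-3.54 and -3.31). On adding TAZ siRNA, both were called in the sibcat background (0.92 and 0.95) and neither in the siAPC background.

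HPGD, the enzyme that inactivates prostaglandins E2 and F2-alpha, was low in both single depletions and higher again with TAZ siRNA. It read 7.87, 7.94, 7.91 and 7.94 in the control, 6.10, 6.07, 6.52 and 5.90 in siAPC and 5.77, 6.10, 5.87 and 5.82 in sibcat cells. The differences from the control were -1.77 (3.40-fold lower) and -2.02 (4.07-fold lower), and the siAPC and sibcat arrays overlapped.
Adding TAZ siRNA gave 6.68, 6.89, 6.89 and 6.76 in the siAPC background (0.66 ± 0.10, 1.58-fold, adjusted p = 1.3e-05). It gave 7.44, 7.38, 7.46 and 7.27 in the sibcat background (1.50 ± 0.10, 2.82-fold, adjusted p = 2.6e-10). Both sets lay above the single depletion without overlap. The larger rise in the sibcat background was called (-0.84 ± 0.14, siAPC minus sibcat background, adjusted p = 9.6e-05). All 4 probe sets rose in the sibcat background (1.17 to 1.63), and 2 of 4 did in the siAPC background (0.50 and 0.66, against 0.16 and 0.23 for those not called), where the mean over the 4 was 0.39. HPGD remained below the control in siAPC/siTAZ cells (-1.11 ± 0.10, adjusted p = 8.6e-09, all 4 probe sets). In sibcat/siTAZ cells it was called 0.53 lower than the control (-0.53 ± 0.10, adjusted p = 1.5e-04). There 2 probe sets were called lower, 1 higher and 1 not called, and the mean over the 4 was not called (-0.10, adjusted p = 0.219).

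**Figure D2:**
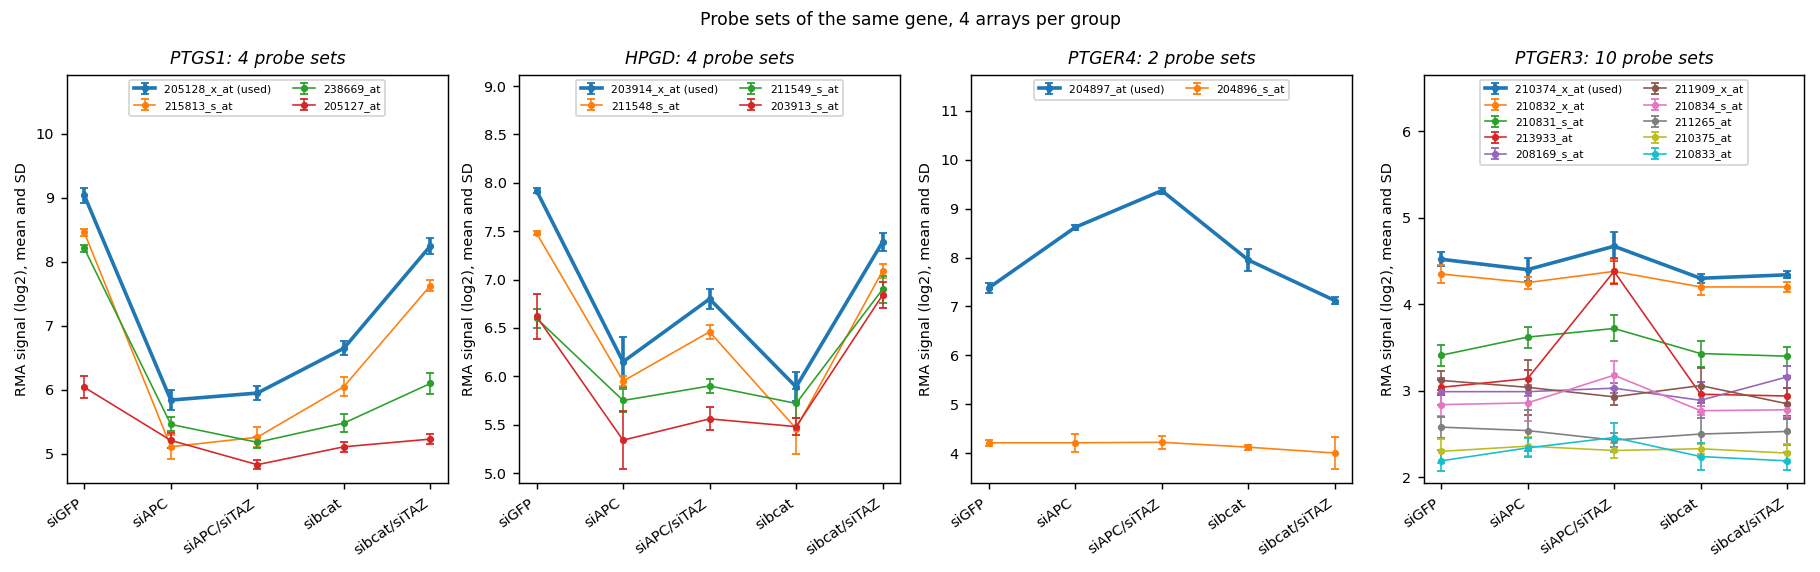
Mean RMA signal (log2, vertical axis) with SD of every probe set of PTGS1, HPGD, PTGER4 and PTGER3 in the 5 groups (horizontal axis), 4 arrays per group. Lines join the means of 1 probe set, and the thick line is the probe set used for the gene. The 4 PTGS1 sets part in sibcat/siTAZ, and in PTGER3 1 of 10 stands out, at 4.38 in siAPC/siTAZ.

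Over the 10 genes, adding TAZ siRNA to siAPC raised 5: PTGES, PTGER2, PTGER4, HPGD and, by 3 of its 10 probe sets, PTGER3. It lowered 2 (PTGS2 and PTGES3) and left 3 not called. Thus 7 of 10 were called against 43.5% of all genes (20.7% higher and 22.8% lower), with a median difference of 0.19 against -0.02. Adding it to sibcat raised 4 (PTGS1, PTGES, HPGD and PTGFR), lowered 2 (PTGS2 and PTGER4) and left 4 not called. Thus 6 of 10 were called against 31.7% (18.0% higher and 13.7% lower), with a median of 0.09 against 0.00. The TAZ siRNA effect differed between backgrounds for 7 members, 3 higher and 4 lower in siAPC, against 27.7% of all genes (12.2% higher and 15.5% lower). By the probe set used for each gene, PTGES and HPGD were called higher in both backgrounds and PTGS2 lower in both. The 10 genes include PTGS1 and PTGS2, which were noted on the single-depletion arrays, so calls of these genes here are no independent support.

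**Figure D3:**
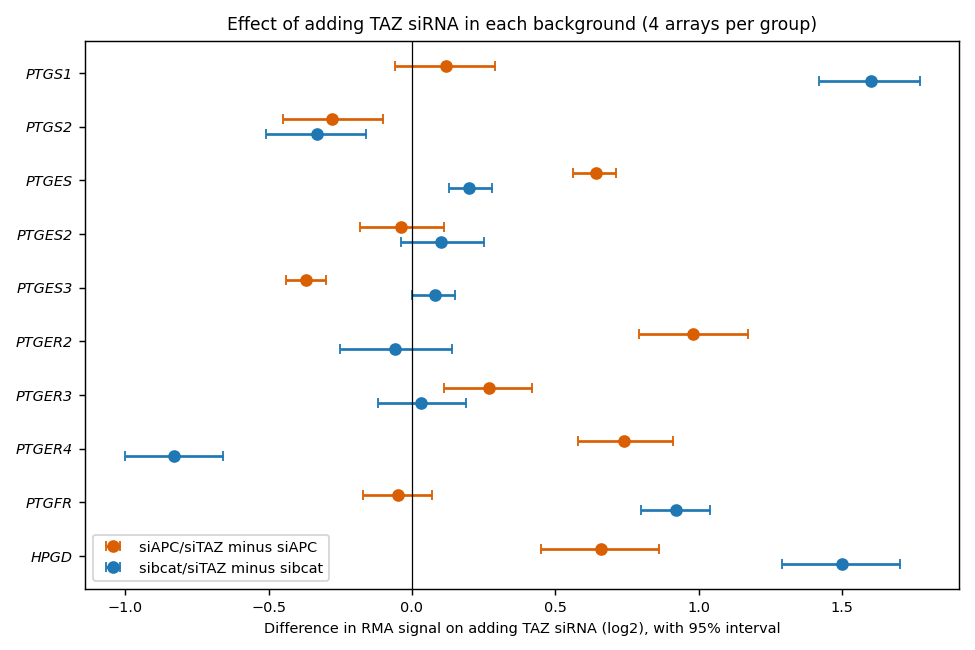
Difference in RMA signal (log2, horizontal axis) on adding TAZ siRNA to siAPC (orange) or to sibcat (blue) for each of the 10 genes (vertical axis), 4 arrays per group. Points are limma estimates and bars their 95% intervals. PTGER4 lies at 0.74 and -0.83, on opposite sides of 0, and PTGS1 at 0.12 and 1.60.

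The single depletions differed from each other in 8 of 10 members, 3 higher and 5 lower in siAPC, against 33.8% of all genes (16.3% higher and 17.5% lower). This count includes PTGS1 and PTGS2, which were noted on these same arrays. Their calls here are therefore no independent support, and their differences are given as descriptions without a p-value. PTGS2 was 2.13 ± 0.08 higher, PTGER4 0.67 ± 0.08 higher (limma adjusted p = 9.9e-07) and PTGER2 0.45 ± 0.09 higher (adjusted p = 6.8e-04) in siAPC cells. PTGFR, PTGES (-1.18 ± 0.04, adjusted p = 4.8e-15), PTGS1 (-0.82 ± 0.08) and PTGES3 (-0.17 ± 0.03, adjusted p = 3.5e-04) were lower. For PTGS1 the mean over probe sets gave -0.42, and 2 of 4 probe sets were called. For PTGER4 that mean gave 0.38, and 204896_s_at was not called (0.09, limma over single probe sets, adjusted p = 0.652). PTGES2 was also lower (-0.21 ± 0.07, adjusted p = 0.0205), a call lost without siAPC replicate C or D or sibcat replicate C or D (adjusted p = 0.0625 to 0.0889). HPGD missed the threshold (0.26 ± 0.10, adjusted p = 0.0505) and passed it at about the same size under 6 other settings: arrays centred on their medians (adjusted p = 0.0480), repeated quantile normalization (0.0359), genes of mean signal at least 5 or 6 (0.0303 and 0.0230), a trended and robust prior (0.0209) and the replicate block (0.0308). It also passed without siAPC replicate D (0.34, adjusted p = 0.00984) or sibcat replicate B (0.33, adjusted p = 0.0158). PTGER3 was not called (0.10 ± 0.07, adjusted p = 0.346).

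Against the control, 9 of 10 members were called in siAPC/siTAZ cells (2 higher and 7 lower, against 47.2% of all genes, 23.0% higher and 24.3% lower) and 6 of 10 in sibcat/siTAZ cells (2 higher and 4 lower, against 44.9%, 25.4% higher and 19.5% lower). Both comparisons use the same control arrays, against which PTGS1 and PTGS2 were noted, so the calls of those genes are no independent support. Between the combined depletions, PTGS1 stood further below the control in siAPC/siTAZ (-3.09 ± 0.08, limma adjusted p = 1.5e-16) and PTGS2 in sibcat/siTAZ (-2.59 ± 0.08, adjusted p = 3.2e-15). PTGFR was 5.18-fold lower in siAPC/siTAZ (-2.37 ± 0.06, adjusted p = 3.1e-17) and 1.92-fold higher in sibcat/siTAZ. The call of PTGES2 in siAPC/siTAZ (-0.20 ± 0.07, adjusted p = 0.0213) was lost without siGFP replicate C or D or siAPC/siTAZ replicate D (adjusted p = 0.0590 to 0.0728).

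The other genes of the pathway were chosen as a list by function. Of 36 listed genes for arachidonate release, other prostanoid synthases and receptors, prostaglandin transport and breakdown, and lipoxygenases, 33 were measured. After siAPC 2 were higher and 12 lower than in the control, 42.4% against 40.0% of all genes called (median -0.12, against 0.00). After sibcat 1 was higher and 9 lower, 30.3% against 37.1% of all genes (median -0.04, against 0.00). AKR1C3, a reductase that makes prostaglandin F2-alpha, fell by 1.77 ± 0.04 in siAPC (adjusted p = 5.4e-18) and by 1.00 ± 0.04 in sibcat cells (adjusted p = 4.7e-14). ALOX15B, a lipoxygenase, fell by 1.71 ± 0.08 and 1.79 ± 0.08 (adjusted p = 7.1e-13 and 5.4e-13). ABCC4, an exporter of prostaglandins, rose by 0.85 ± 0.05 and 0.54 ± 0.05 (adjusted p = 7.4e-11 and 8.8e-08). SLCO2A1, the prostaglandin uptake carrier, fell by 0.55 ± 0.07 in siAPC (adjusted p = 1.2e-06), and LTA4H, which makes leukotriene B4, fell by 0.48 ± 0.03 in sibcat cells (adjusted p = 4.8e-10).

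With TAZ siRNA added to siAPC, 5 of the 33 were higher and 6 lower, 33.3% against 43.5% of all genes called (median 0.03, against -0.02). Added to sibcat, limma called 7 higher and 0 lower (2 were lower at an unadjusted p under 0.05, median -0.02 against 0.00). That makes 21.2% called, against 31.7% of all genes (18.0% higher and 13.7% lower). AKR1C3 rose by 1.62 ± 0.04 (adjusted p = 1.9e-17) and 1.07 ± 0.04 (adjusted p = 1.7e-14), and PTGFRN, a membrane partner of the PTGFR protein, by 0.80 ± 0.06 and 0.55 ± 0.06 (adjusted p = 2.6e-10 and 1.1e-07). AKR1C3 belongs to a family of near-identical genes that its probe set may not separate. ALOX15B fell by a further 1.12 ± 0.08 in the siAPC background (adjusted p = 3.2e-10), while PLA2G4A, the phospholipase that frees arachidonic acid, rose by 0.77 ± 0.06 in the sibcat background (adjusted p = 1.7e-09). CBR3, a carbonyl reductase, fell by 0.62 ± 0.07 in the siAPC background (adjusted p = 1.6e-07). CBR1, which also reduces prostaglandin E2, rose by 0.45 ± 0.07 in the sibcat background (adjusted p = 4.4e-05).
The TAZ siRNA effect differed between backgrounds for 10 of the 33 (30.3%, against 27.7% of all genes), by -1.04 ± 0.09 for CBR3 (adjusted p = 5.7e-08) and -0.98 ± 0.11 for ALOX15B (adjusted p = 1.1e-06). PLA2G4A differed by -0.66 ± 0.08 (adjusted p = 2.8e-06) and AKR1C3 by 0.56 ± 0.05 (adjusted p = 9.5e-08). By limma 0 of the other 5 prostanoid receptors were called on adding TAZ siRNA in either background, and at an unadjusted p under 0.05 there was 1 in the siAPC and 0 in the sibcat background. Between the combined depletions 13 of 33 were called (4 higher and 9 lower in siAPC/siTAZ, 39.4% against 45.0% of all genes), with CBR3 at -1.65 ± 0.07 (adjusted p = 5.4e-14), and between the single depletions 9 (2 higher and 7 lower in siAPC, 27.3% against 33.8%), with AKR1C3 at -0.77 ± 0.04 (adjusted p = 3.3e-12). Against the control, ALOX15B was lowest in both combined depletions (-2.83 ± 0.08 and -1.94 ± 0.08, adjusted p = 2.3e-16 and 1.1e-13), with 3 of 33 higher and 12 lower in siAPC/siTAZ (45.5%, against 47.2% of all genes) and 5 higher and 5 lower in sibcat/siTAZ cells (30.3%, against 44.9%).

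**Figure D4:**
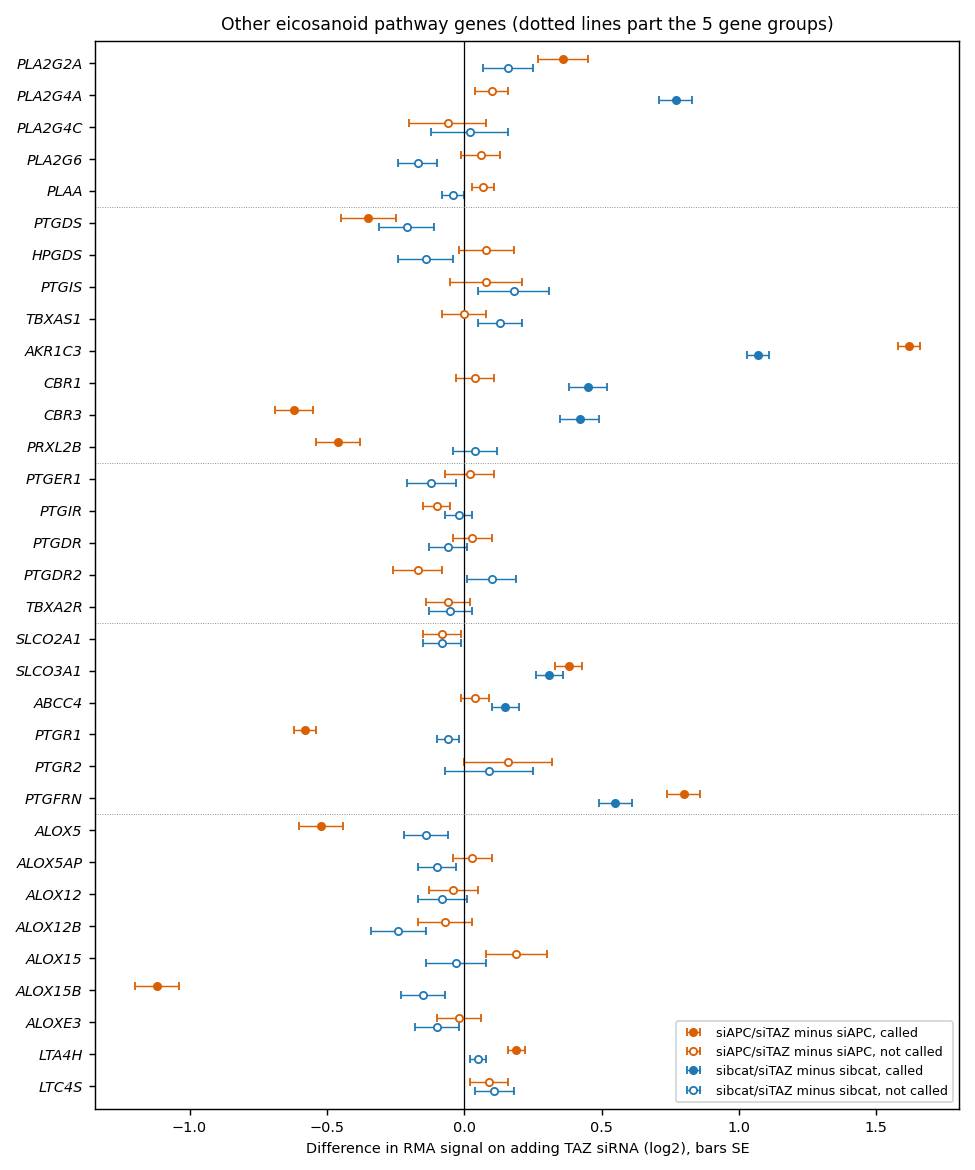
Difference in RMA signal (log2, horizontal axis) on adding TAZ siRNA to siAPC (orange) or sibcat (blue) for the 33 other pathway genes (vertical axis, dotted lines between the 5 gene groups), 4 arrays per group. Bars are the SE, and filled points were called at a limma adjusted p under 0.05. AKR1C3 is highest in both backgrounds (1.62 and 1.07), and ALOX15B is lowest in the siAPC background (-1.12).

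For each member whose group means span at least 1, the 3 genes with the most similar levels over the 20 arrays are given as a description. The arrays fall into 5 groups, so the correlation mostly follows the group means. PTGS1 was closest to ITPR1, ASS1 and EMP2 (Pearson r = 0.978, 0.977 and 0.972), and PTGS2 to MARVELD2, A2ML1 and GGCT (0.984, 0.982 and 0.981). MARVELD2, the tight-junction protein tricellulin, had group means of 9.19 in the control, 9.21 in siAPC, 9.25 in siAPC/siTAZ, 7.69 in sibcat and 7.48 in sibcat/siTAZ cells. PTGES was closest to SMIM14, PTPRE and C9orf72 (0.991, 0.989 and 0.984), PTGER2 to TBX3, SEMA4C and MYO3B (0.972, 0.971 and 0.971), and PTGER4 to GABARAPL1, TOX-DT and PTPN21 (0.982, 0.981 and 0.981). HPGD was closest to BBOX1, SDC1 and CSRP2 (0.957, 0.955 and 0.947), and PTGFR to ACOX2, DPYD and FUNDC2 (0.990, 0.985 and 0.984). ACOX2, a peroxisomal oxidase, had means of 8.19 in the control, 6.14 in siAPC, 6.20 in siAPC/siTAZ, 8.20 in sibcat and 8.71 in sibcat/siTAZ cells.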

How the data were processed

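Total RNA of 20 samples was hybridised to Affymetrix arrays, 1 array per sample. The authors deposited log2 signals: the submitters' processing notes name RMA, and the values span a range typical of its log2 output. No source used here gives the RMA version or the siRNA sequences. RMA equalises the arrays, so a shift common to most genes would not be seen. Probe sets with 1 gene symbol (41091 after 62 control probe sets were left out) were given current RefSeq symbols where the identifier matched (41037), and each of 19775 genes took its values from whichever of its probe sets had the largest average signal. Probe sets with _x_ in their name may bind other transcripts. No filter on low signals was applied.

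All 20 arrays entered 1 limma fit with a mean per group, using limma 3.58.1 in R 4.3.3 (15 residual and 3.39 prior degrees of freedom). Tests were two-sided, and p-values were adjusted by Benjamini-Hochberg over all 19775 genes in each comparison, and a gene was called at an adjusted p under 0.05. Values are means over 4 arrays with SD, or differences with SE. The number of arrays limits the precision. On simulated data for siAPC/siTAZ minus siAPC with 19775 genes, the fit recovered 36%, 88%, 100% and 100% of 50 changed genes each at 0.25, 0.5, 1 and 2, with 11 false calls among 173. The simulation changed a far smaller share of genes than the 43.5% called in that comparison, so these figures need not carry over to the data.

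The members and lists were chosen with earlier results of these data known. Named were all members with their probe sets, up to 4 called pathway genes of largest change per comparison, and the 3 genes of highest correlation per member of wide span. PLA2G4B, PLA2G10, AKR1B1 and 4 markers were not analysed here. Arrays of the same letter were not treated as pairs. Alternatives were array centring, repeated quantile normalization, other handling of probe sets, filters on low signal, another variance prior, fits of only the groups compared, a replicate block, and leaving out each array.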

Additional observations from a re-analysis of the deposited data

Results flagged for a closer look

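The TAZ siRNA effect differed between the siAPC and sibcat backgrounds for 7 of the 10 genes by the interaction term of the limma fit. The differences, siAPC minus sibcat background on the log2 scale, were -1.48 for PTGS1 (adjusted p = 9.8e-09), 0.43 for PTGES (adjusted p = 2.0e-06), -0.45 for PTGES3 (adjusted p = 5.9e-07) and 1.04 for PTGER2 (adjusted p = 4.4e-06). They were 1.57 for PTGER4 (adjusted p = 2.1e-09), -0.84 for HPGD (adjusted p = 9.6e-05) and -0.97 for PTGFR (adjusted p = 1.9e-08). For PTGER4 every siAPC/siTAZ array was above every siAPC array and every sibcat/siTAZ array below every sibcat array. The term for PTGS1 includes the single-depletion arrays on which that gene was noted, and it is no independent support.

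Single arrays stood apart from the other 3 of their group in 3 of 50 sets of 4 arrays, by a gap above the critical value of Dixon's test, which chance gives in about 1 of 20 sets. PTGS1 read 6.48 in 1 sibcat array against 6.69 in the nearest, PTGES2 read 7.41 in 1 sibcat/siTAZ array against 7.51, and PTGER4 read 7.23 in 1 control array against 7.41. The gaps were 0.840, 0.909 and 0.857 of the range.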

How the results depend on the processing

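No called member difference changed direction under any of the 29 alternatives. The fit of single probe sets kept the probe set used for each gene, so the other probe sets were not among these alternatives on their own. One of them went the other way: for HPGD in sibcat/siTAZ against the control, 211549_s_at was called higher (0.30, limma over single probe sets, adjusted p = 0.00621) and the gene lower (-0.53). Of 2002 recomputed values of the 70 tested member differences, 1963 kept their side of the threshold, 28 passed it newly and 11 lost it, in 14 of the 70. Testing every probe set on its own raised the counts of called features, because 41091 features were tested: 16062 for siAPC/siTAZ minus siAPC, 10683 for sibcat/siTAZ minus sibcat, 11921 for siAPC minus sibcat, 16756 for siAPC/siTAZ minus sibcat/siTAZ, 9183 for the difference of TAZ siRNA effects, 17641 and 16087 for the combined APC and beta-catenin depletions and 14325 and 12648 for siAPC and sibcat, each against the control. Taking the mean over probe sets moved 12 called differences of PTGS1, HPGD and PTGER4 by over 1.5 times. Between the combined depletions it gave 1.23 in place of 2.25 for PTGER4, -1.50 in place of -2.30 for PTGS1 and -0.87 in place of -0.58 for HPGD, and the other 9 are given with each gene. Leaving out 1 array kept the called members at 7 and 6 on adding TAZ siRNA to siAPC and sibcat, at 10 between the combined depletions, and at 7 to 9 between the single depletions. It kept them at 8 to 9 for siAPC/siTAZ and 6 to 8 for sibcat/siTAZ against the control, where PTGER2 and PTGER3 passed without siGFP replicate D (-0.27 and -0.22, adjusted p = 0.0295 and 0.0311), and at 7 to 8 for the difference of TAZ siRNA effects. With the replicate letter as a block, 8680 genes against 8607 were called for siAPC/siTAZ minus siAPC and 6259 against 6264 for sibcat/siTAZ minus sibcat, and of the member calls only HPGD between the single depletions changed (adjusted p = 0.0308). Same-letter residuals correlated at a median of 0.027 over 40 pairs, and 7 of 20 arrays matched their own letter best, so the letters were not taken as pairs. Signals below the array medians limit what can be read for PTGER2 and PTGER3.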

Other observations

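One gene of the leukocyte and mast cell list, singled out after its values were seen, was higher in both single depletions than in the other groups. CPA3, mast cell carboxypeptidase, had a signal of 3.22 in the control, 6.57 in siAPC and 6.0 in sibcat cells, and 3.51 and 3.31 once TAZ siRNA was added, while the leukocyte gene PTPRC lay between 2.67 and 2.73 throughout. The other measured genes of the list did not share this pattern. TPSAB1 lay between 5.26 and 5.51 and CD3E between 5.07 and 5.26. LYZ was at 4.54 in the control, 3.46 in siAPC and 3.61 in sibcat cells, and at 3.48 and 3.19 once TAZ siRNA was added.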
